A study of Homo sapiens with 6 samples.

Results

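The circadian clock genes NR1D1, PER2 and CIART, the clock-output genes DBP, TEF and NOCT, and the entry MIR6883, which lies inside the clock gene PER1, were examined in ES2 cells. These 7 entries were taken by symbol from 1113 listed entries, of which 771 carried a symbol, and all 7 were found in every library. ES2 is a human ovarian cancer cell line, labelled as epithelial ovarian cancer cells and kept in RPMI-1640 medium with serum. The 3 control libraries are of cells that received a control antisense oligonucleotide (ASO). The 3 knockdown libraries are of cells in which an ASO, a synthetic strand made to pair with a chosen RNA, was directed at RUNX1-IT1, a non-coding RNA from the RUNX1 locus. The dose, the time of exposure, the number of oligonucleotides used and the hour of harvest are not given in the sources used here, and no step that would synchronise the cells' clocks is described. Whether the replicates were separate cultures is not stated either, so the spread between them may be technical.

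The mammalian clock is a feedback loop of transcription. The activators CLOCK and BMAL1 (the product of ARNTL) bind E-box sequences and switch on the genes of their own repressors, the PER and CRY proteins, and of the nuclear receptor REV-ERB alpha (NR1D1), which represses ARNTL. Output genes carry the rhythm onward, among them DBP and TEF, activators of the PAR bZIP family that bind D-box sequences. Many cultured cells keep such clocks, but the cells of an unsynchronised culture stand at different phases.

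The values are CPM, read counts scaled to a library of fixed size, as the authors deposited them. The listed entries covered 1.02 to 1.11% of all CPM in the control libraries and 0.363 to 0.389% in the knockdown libraries. The means of the 2 groups differed by 2-fold or more for every entry but 1, with 1081 having the lower mean in the knockdown libraries and 32 with the higher. The tables thus hold entries selected for a difference between these samples, and the 7 clock entries were picked from them with this contrast in view, so their differences are given as a description with no test, and the limma SE printed beside a change describes its precision. RUNX1-IT1 is not listed in these tables, so knockdown of the target was not analysed here. Low values lay on even steps of 0.0471 to 0.0586 CPM. If 1 step is 1 read, this corresponds to 17100000 to 21200000 reads in a library. Of 15 ovarian carcinoma and epithelial markers, PAX8 and ESR1 were listed, with a summed level of 8.77 to 10.7 CPM in the control libraries and 3.12 to 4.33 CPM in the knockdown libraries. Of 6 immune markers only ITGAM was listed, at 1.62 to 1.84 CPM in the control libraries and 0.059 to 0.214 CPM in the knockdown libraries. None of the 8 mesenchymal, 4 endothelial and 4 neuronal markers was listed. Since entries were selected for a difference, a marker that is not listed may still be expressed in these cells. The part of other cells in the results was not tested. A lower level in bulk RNA does not tell fewer expressing cells from less RNA per cell.

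All 7 clock entries were lower in the knockdown libraries, by 2.40-fold (PER2) to 5.11-fold (NR1D1), and in each of them the highest knockdown library lay below the lowest control library. Of the 489 tested genes, 97.1% had every knockdown library below every control library. In limma at a Benjamini-Hochberg adjusted p under 0.05, 97.5% of the tested genes were called lower and 2.04% higher. Nothing is read from these shares for the 7 entries, which this contrast served to pick. The median fold over the 7 entries was 2.96, beside 2.97 over all tested genes. The median change on the log2(CPM + 1) scale, knockdown minus control, was -1.50 for the 7 entries and -1.11 for all tested genes.

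**Figure D1:**
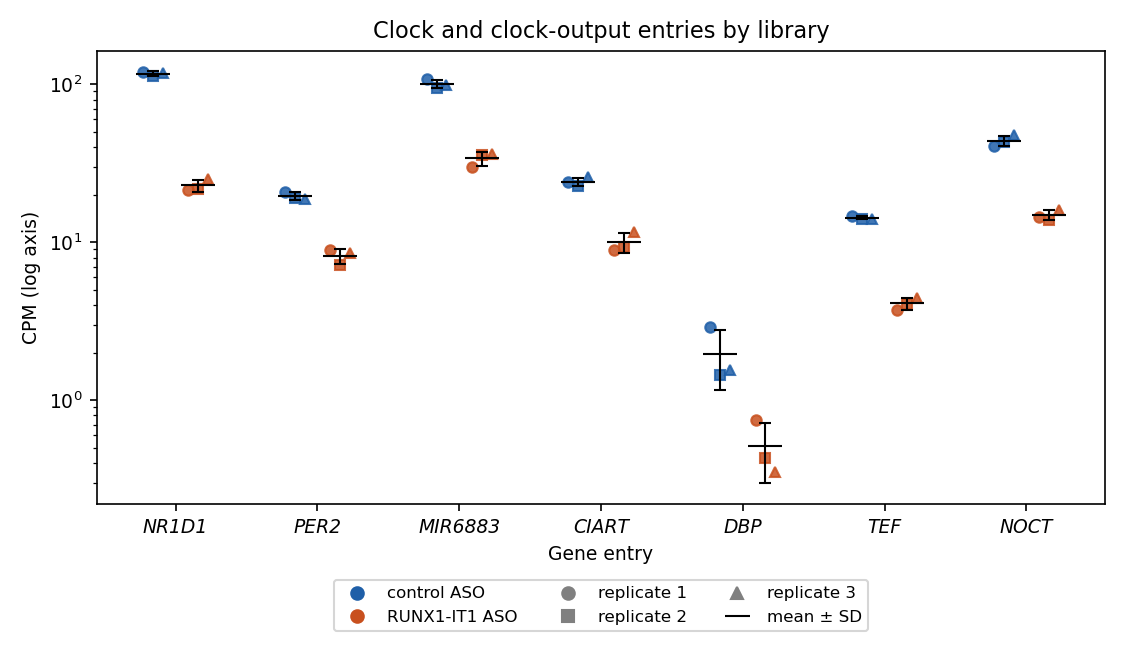
CPM (log axis) of the 7 entries in each library, with blue for control ASO (control), orange for RUNX1-IT1 ASO (knockdown), a marker shape for each replicate number and black bars for mean ± SD (n = 3). The groups do not overlap for any entry, and DBP lies far below the others, with its control replicate 1 at 2.89 CPM apart from 1.45 and 1.56 CPM.

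NR1D1 encodes REV-ERB alpha, the heme-binding nuclear receptor that represses ARNTL. It had the highest level per kb of exon of the 6 protein-coding clock genes and the largest fold of the 7 entries. NR1D1 stood at 120.4, 113 and 118 CPM in control replicates 1, 2 and 3. It stood at 21.6, 21.9 and 25.2 CPM in knockdown replicates 1, 2 and 3. The lowest control library was 4.48-fold above the highest knockdown library, so the gap was wide next to the spread within either group. The means were 117 ± 3.78 and 22.9 ± 2.01 CPM (SD, n = 3 each), a change of -2.31 ± 0.09 on the log2(CPM + 1) scale (limma SE). Its fold was larger than that of 80.6% of the tested genes.

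The NR1D1 gene lies on chromosome 17 from 40092787 to 40100725 (GENCODE release 29, GRCh38, minus strand). It overlaps THRA, a thyroid hormone receptor gene on the other strand, by 1081 bases at its 3′ end, and reads of the shared stretch cannot be told apart if the counting did not use strand. THRA is not listed. The bases before its first annotated exon are shown because they hold a variant E-box, the E-prime-box CACGTT, which reads AACGTG on the gene's own strand and is in capitals here (RefSeq window, GRCh38.p14, chr17:40100726-40100839, minus strand, positions -250 to -137 from the RefSeq start).
NR1D1: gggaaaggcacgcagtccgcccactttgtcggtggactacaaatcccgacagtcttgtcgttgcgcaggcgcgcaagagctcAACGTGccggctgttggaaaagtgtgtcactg

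PER2 encodes a period protein, which joins the cryptochromes to block CLOCK and BMAL1. PER2 had the smallest fold of the 7 entries. Its control libraries held 20.9, 19.2 and 18.9 CPM. Its knockdown libraries held 8.88, 7.15 and 8.49 CPM. Replicate 2 was the lowest of the knockdown libraries, and even the closest pair of libraries across the groups differed 2.13-fold. The means of 19.6 ± 1.07 and 8.17 ± 0.906 CPM (SD, n = 3 each) differed 2.40-fold, with a change of -1.17 ± 0.11 (limma SE), and 29.4% of the tested genes had a smaller fold.

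PER2 spans chromosome 2 from 238244038 to 238290102 on the minus strand, and 2 non-coding genes of the other strand, neither of them listed, overlap it by 11596 and 976 bases. GENCODE places the 5′ end of the gene further upstream than RefSeq does. The RefSeq window holds an E-prime-box at -197 to -192 on the gene's own strand and a D-box, TTACGTAA, across the start itself, from -3 to 5. The window is shown for these 2 matches, in capitals, as the 250 bases before the start (GRCh38.p14, chr2:238288611-238288860, minus strand) and as the 24 bases around the D-box (chr2:238288598-238288621).
PER2 upstream: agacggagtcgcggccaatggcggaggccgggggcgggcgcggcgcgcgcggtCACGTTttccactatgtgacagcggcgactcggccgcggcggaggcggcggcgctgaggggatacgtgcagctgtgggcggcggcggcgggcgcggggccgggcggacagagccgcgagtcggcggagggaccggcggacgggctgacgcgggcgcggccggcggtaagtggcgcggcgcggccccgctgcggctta
PER2 D-box: gctgcggcTTACGTAAccgccgcc

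CIART, also known as CHRONO, encodes another repressor of CLOCK and BMAL1. Levels of CIART were 23.9, 22.6 and 25.7 CPM in the control libraries. They were 8.93, 9.36 and 11.7 CPM in the knockdown libraries, of which replicate 3 was the highest. The 2 groups did not overlap, and the closest pair of libraries differed 1.94-fold. Means of 24.1 ± 1.55 and 9.98 ± 1.47 CPM (SD, n = 3 each) gave a 2.41-fold difference, nearly that of PER2, with a change of -1.20 ± 0.11 (limma SE).

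The CIART gene (chromosome 1, 150282543 to 150287093, plus strand) overlaps no other annotated gene. Its promoter window was the richest in E-boxes among the clock genes. The canonical E-box CACGTG, which reads the same on both strands, stood at -129, -71 and -57 from the RefSeq start. Among all 35116 RefSeq windows of 300 bases, 33 (0.094%) held at least 3 E-boxes. The stretch before the first annotated exon is printed with the 3 E-boxes in capitals (GRCh38.p14, chr1:150282304-150282542, plus strand).
CIART: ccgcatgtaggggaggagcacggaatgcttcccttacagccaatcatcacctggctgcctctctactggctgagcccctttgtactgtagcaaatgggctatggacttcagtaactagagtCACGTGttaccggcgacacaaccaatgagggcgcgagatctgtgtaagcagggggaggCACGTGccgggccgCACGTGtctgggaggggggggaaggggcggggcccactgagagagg

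MIR6883 is annotated as a microRNA hairpin of 78 bases on chromosome 17 from 8144994 to 8145071, minus strand, the strand of PER1, another period gene of the clock's repressing arm. The entry held 107, 95.02 and 99.3 CPM in the control libraries. In the knockdown libraries it held 30.1, 35.4 and 36.3 CPM. The groups lay apart by 2.62-fold at their closest, and knockdown replicate 1 was the lowest library. Means were 101 ± 6.27 and 33.9 ± 3.34 CPM (SD, n = 3 each), 2.96-fold lower in the knockdown libraries, with a change of -1.54 ± 0.09 (limma SE).

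PER1 itself is not listed. Per kb of its own length the entry stood at 1289 ± 80.4 CPM per kb in control libraries, beside 42.2 ± 1.36 CPM per kb of exon for NR1D1, the next of the 7. In GENCODE release 29 an exon of 1 of the 19 PER1 transcripts runs over the hairpin, and in 6 others an exon begins at the base after the hairpin's 3′ end, so that, where the transcript has an exon upstream, the hairpin fills the last bases of an intron. Libraries made from long RNA hold few mature microRNAs, and reads of PER1 and of the microRNA cannot be told apart in this entry. The values are therefore given for the entry and not as a level of a mature microRNA. The mature sequence is printed with its seed (bases 2 to 8) in capitals and the hairpin with the mature part in capitals (RefSeq, GRCh38.p14, chr17:8144994-8145015 and chr17:8144994-8145071). Of 2545 mature entries in the RefSeq table, no other carried this seed.
hsa-miR-6883-3p: uUCCCUAUcucacucuccucag
MIR6883 hairpin: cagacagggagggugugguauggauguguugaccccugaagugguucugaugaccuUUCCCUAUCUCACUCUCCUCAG

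**Figure D2:**
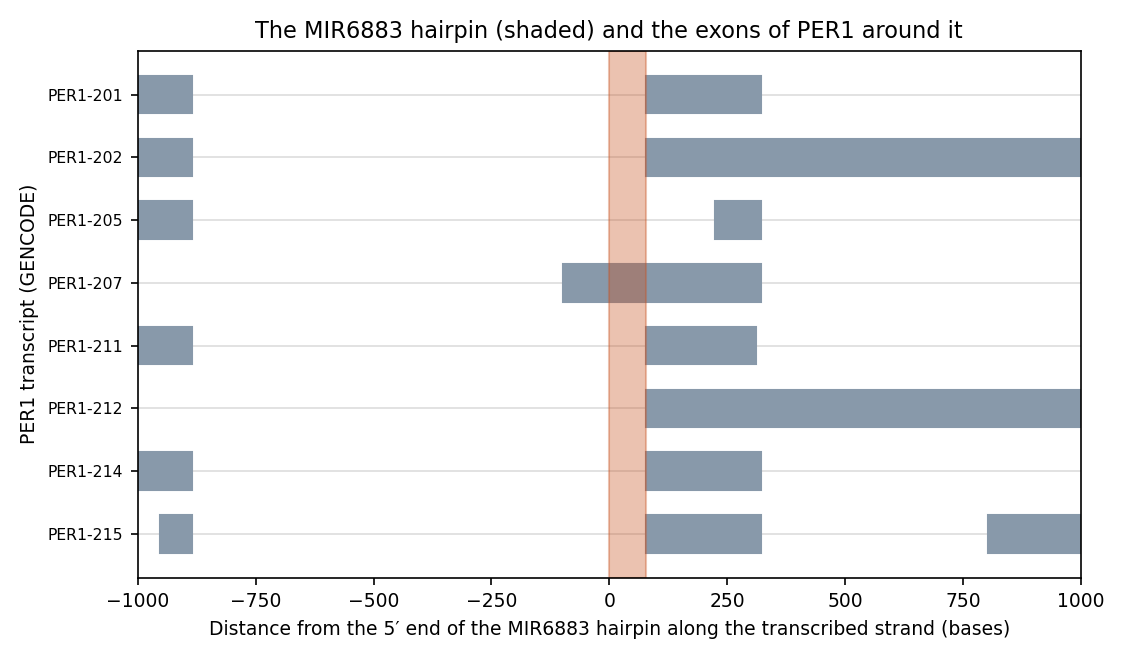
Exons (grey) of the 8 PER1 transcripts that have an exon within 1000 bases of the 5′ end of the MIR6883 hairpin (orange band), by distance along the transcribed strand in bases. The hairpin of 78 bases ends where an exon begins in 6 transcripts and lies within an exon of 1 further transcript.

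Around PER1, 2 further listed genes lay close by. Both are named here after their values were seen. ALOXE3, an epidermal lipoxygenase gene 21425 bases beyond one end of PER1 on the same strand, held 13.6, 10.6 and 12.02 CPM in the control libraries and 0.963, 1.51 and 0.879 CPM in the knockdown libraries, 10.8-fold lower. VAMP2, a vesicle fusion gene 2643 bases beyond the other end, was listed at 0, 0 and 0.424 CPM in the control libraries and at 0, 2.90 and 0.937 CPM in the knockdown libraries. The ALOXE3 groups lay apart, while those of VAMP2 overlapped. None of the 3 nearest annotated genes on either side of NR1D1, PER2, CIART, DBP, TEF or NOCT, and none that overlaps them, is listed.

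DBP and TEF encode PAR bZIP activators, which bind D-boxes in the promoters of clock and metabolic genes. HLF, the remaining member of that family, and NFIL3, the repressor that competes for the same sites, are not listed. TEF held 14.6, 14.1 and 14.0 CPM in the control libraries, the tightest group of the 7 entries. It held 3.74, 4.09 and 4.45 CPM in the knockdown libraries. Every control library exceeded every knockdown library at least 3.15-fold. Means of 14.3 ± 0.299 and 4.09 ± 0.355 CPM (SD, n = 3 each) differed 3.48-fold, with a change of -1.58 ± 0.10 (limma SE).

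TEF lies on chromosome 22 from 41367333 to 41399326, plus strand, and RefSeq gives it a pair of start sites. Both windows hold 1 E-box at nearly the same distance, at -195 before the first start and -193 before the second. These are shown with the E-box in capitals, the first as the 28 bases around it (GRCh38.p14, chr22:41367249-41367276) and the second as the bases before the annotated exon (chr22:41381692-41381928).
TEF first start: cgcgacagctcCACGTGctgcagctggc
TEF second start: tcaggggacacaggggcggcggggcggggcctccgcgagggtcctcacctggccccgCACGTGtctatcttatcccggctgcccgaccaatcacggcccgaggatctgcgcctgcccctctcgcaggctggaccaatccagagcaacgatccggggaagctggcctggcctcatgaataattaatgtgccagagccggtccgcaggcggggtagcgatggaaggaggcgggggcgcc

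DBP had the lowest level of the 7 entries, also per kb of exon. The control libraries held 2.89, 1.45 and 1.56 CPM, and the knockdown libraries held 0.749, 0.430 and 0.351 CPM. Control replicate 1 was nearly double the other two, and the closest pair across the groups still differed 1.93-fold. If 1 step is 1 read, these values stand for an estimated 58, 25 and 33 reads and 14, 8 and 6 reads. On that estimate the exact Poisson 95% interval of control replicate 1, 2.19 to 3.74 CPM, did not meet that of replicate 2, 0.937 to 2.14 CPM, and these intervals cover counting error only. Means were 1.96 ± 0.803 and 0.510 ± 0.211 CPM (SD, n = 3 each), 3.85-fold lower in the knockdown libraries. With 1 library left out in turn the fold ran from 2.94, without control replicate 1, to 5.03, without knockdown replicate 1, a wider range than for any other of the 7. The change of -0.95 ± 0.18 (limma SE) on the log2(CPM + 1) scale was the smallest of the 7, although the fold was the second largest, because 1 CPM added to such low values shrinks the difference. With 0.1 CPM added instead, the change of DBP was -1.75 ± 0.34 (limma SE). It was then further from 0 than those of PER2 (-1.26 ± 0.12) and CIART (-1.27 ± 0.12). NOCT (-1.56 ± 0.10) and MIR6883 (-1.57 ± 0.09) lay within the SE of DBP, so their order relative to DBP is not settled.

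DBP (chromosome 19, 48630030 to 48637438, minus strand) overlaps SPHK2, a sphingosine kinase gene of the other strand, by 688 bases, and SPHK2 is not listed. Neither the DBP nor the NOCT window held any of the motifs searched.

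NOCT encodes nocturnin, a rhythmic enzyme related to the CCR4 deadenylases. It held 41.0, 43.2 and 47.5 CPM in the control libraries. Its knockdown libraries held 14.5, 13.9 and 16.1 CPM. Replicate 3 was the highest library in each group, and the groups stood at least 2.54-fold apart. Means of 43.9 ± 3.30 and 14.9 ± 1.12 CPM (SD, n = 3 each) gave a 2.95-fold difference and a change of -1.50 ± 0.09 (limma SE), close to those of the MIR6883 entry. NOCT lies on chromosome 4 from 139015789 to 139045939, plus strand, and shares 17828 bases with ELF2, an unlisted gene of the other strand.

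**Figure D3:**
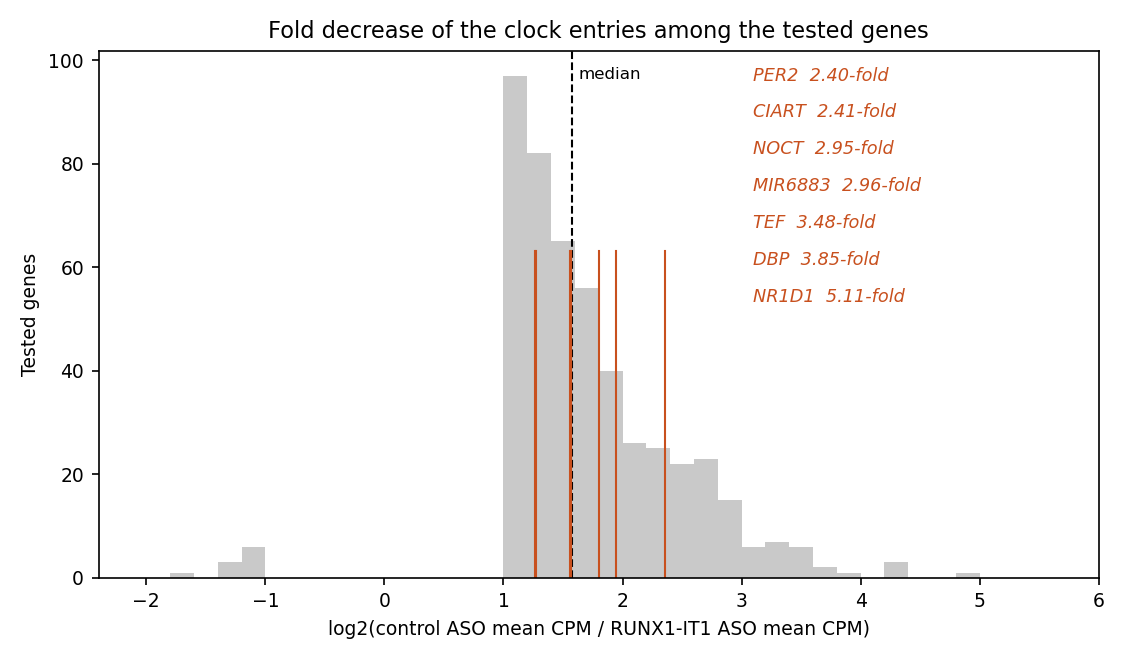
Histogram of the log2 ratio of control to knockdown mean CPM over the 489 tested genes (bars count genes), with orange lines at the 7 entries, a dashed line at the median and the folds written at the right. The gap around 0 is the range of under 2-fold differences that the tables barely hold; PER2 and CIART lie near the lower edge of the main body and NR1D1 beyond its middle.

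The folds of the 7 entries were not alike, and ratios within a library, which no scaling of that library can move, show the same. The ratio of NR1D1 to PER2 in CPM was 5.77, 5.89 and 6.23 in the control libraries and 2.43, 3.06 and 2.97 in the knockdown libraries. That of NR1D1 to CIART went from 4.86 ± 0.253 to 2.30 ± 0.13, that of NR1D1 to TEF from 8.21 ± 0.197 to 5.59 ± 0.209, that of NR1D1 to NOCT from 2.68 ± 0.236 to 1.54 ± 0.0498 and that of NR1D1 to MIR6883 from 1.16 ± 0.0379 to 0.676 ± 0.0517 (mean ± SD, n = 3 each). In these 5 ratios the groups did not overlap. Nor did they in the ratio of NOCT to PER2, at 2.24 ± 0.275 and 1.83 ± 0.166, or of NOCT to TEF, at 3.08 ± 0.288 and 3.64 ± 0.24. Such ratios restate the differing folds of entries picked with this contrast in view. No share over other gene pairs was computed, so nothing particular to the clock is read from them. The ratio of CIART to PER2 was 1.23 ± 0.116 in control libraries and 1.23 ± 0.196 in knockdown libraries, and that of NOCT to MIR6883 was 0.438 ± 0.0503 and 0.44 ± 0.0452, with the groups overlapping in both. The ratios to DBP overlapped between the groups as well, with SDs of up to 21.5 around means of 65.1 and 50.5 for NR1D1 over DBP.

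DBP, the lowest of the 7 entries, had the widest replicate spread in both groups. In the control group the coefficient of variation was 2.1% for TEF, 3.23% for NR1D1 and 40.9% for DBP, and counting alone would give, if 1 step is 1 read, 5.99%, 2.09% and 16.1%. In the knockdown group it ran from 7.57% for NOCT to 14.7% for CIART, with DBP at 41.3%. Control levels of the protein-coding genes per kb of annotated exon ran in the order NR1D1 (42.2 ± 1.36 CPM per kb), NOCT (17.5 ± 1.32), CIART (8.94 ± 0.576), TEF (3.02 ± 0.0635), PER2 (2.86 ± 0.156) and DBP (0.3 ± 0.123). TEF and PER2 overlapped between libraries and cannot be ranked, while the other neighbours in this order did not overlap. Divided by the length of the principal transcript instead of all annotated exons, the control levels were 0.881 ± 0.36 CPM per kb for DBP and 13.8 ± 0.889 for CIART. The order of the means was the same. In the knockdown libraries the order of the first 3 was the same, from NR1D1 at 8.25 ± 0.725 to CIART at 3.7 ± 0.544 CPM per kb. TEF and PER2, which could not be ranked in the control libraries, lay apart there, with PER2 the higher. PER2 stood at 1.29, 1.04 and 1.24 and TEF at 0.794, 0.867 and 0.944 CPM per kb, without overlap.

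Giving every library the same summed CPM over the list asks how each gene moved relative to the rest of the list, whose total was 2.83-fold lower in the knockdown libraries. After it 24.1% of the tested genes were called lower and 8.79% higher. NR1D1 stood at -0.84 ± 0.07 (limma SE), the furthest from 0 of the 7 entries. PER2 and CIART turned positive, at 0.21 ± 0.11 and 0.21 ± 0.10. TEF stood at -0.27 ± 0.10, DBP at -0.23 ± 0.20, MIR6883 at -0.07 ± 0.07 and NOCT at -0.06 ± 0.08. The median over the 7 entries was -0.07, beside -0.06 over all tested genes. By its construction this step centres a list in which nearly all genes were lower, so a value near 0 marks a difference of about the size of the list's and not a level that stayed.

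**Figure D4:**
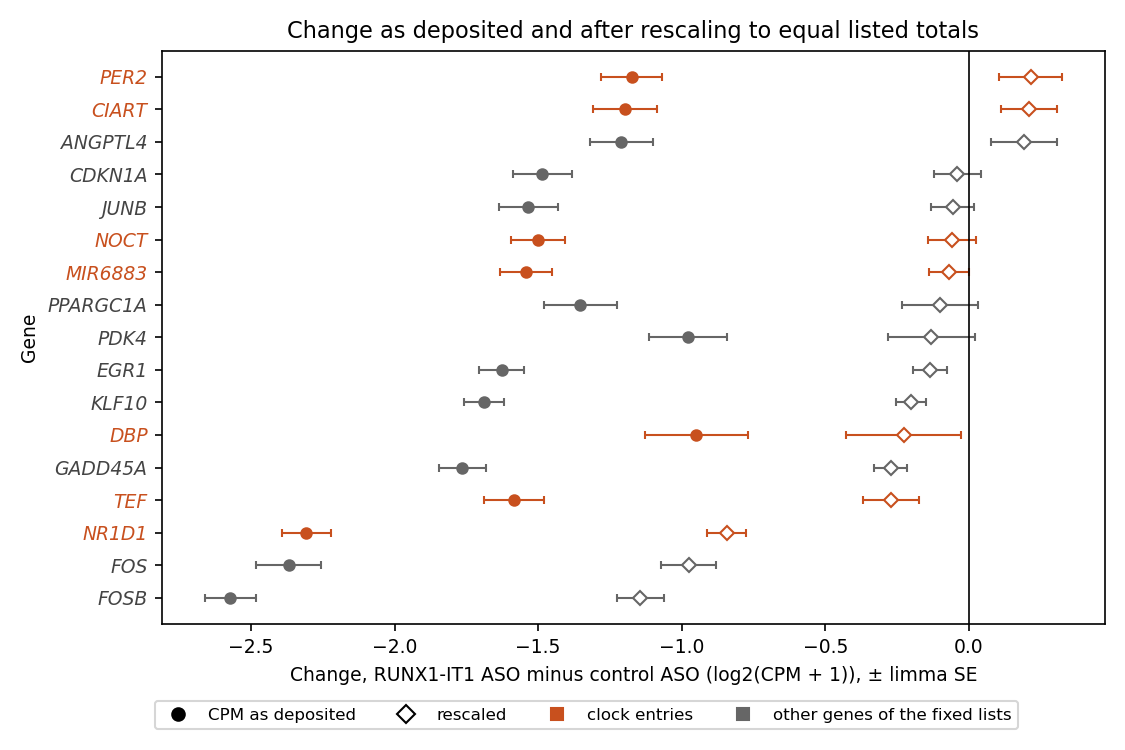
Change on the log2(CPM + 1) scale, knockdown minus control, with limma SE bars, for the clock entries (orange) and the other tested genes of the fixed clock lists (grey), as deposited (filled circles) and after rescaling to equal listed totals (open diamonds). After rescaling PER2, CIART and ANGPTL4 lie above 0, and NR1D1, FOS and FOSB remain furthest below it.

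The wider clock was taken from 4 lists. Of 17 core clock genes, NR1D1, PER2 and CIART were the 3 listed, and the other 14, among them ARNTL, CLOCK, NPAS2, PER1, PER3, CRY1, CRY2, NR1D2, RORA, BHLHE40 and BHLHE41, were not analysed here. None of 37 modifiers and cofactors of clock proteins, such as the casein kinases CSNK1D and CSNK1E, was listed. Since the tables hold almost only differences of at least 2-fold, a gene that is not listed may have differed by less or may have been left out for another reason.

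Of 22 clock output and clock-coupled genes, 7 were listed besides DBP, TEF and NOCT. All 6 of these that entered the test fell (limma, adjusted p under 0.05), as did 97.5% of all tested genes. The median change of the 6 was -1.42, beside -1.11 over all tested genes, of which 165 of 489 averaged 5 CPM or more. The added 1 CPM shrinks changes at low levels, so these medians depend on level as well as on fold. The folds of the 6 ran from 2.46 to 3.41, around the median fold of 2.97 over all tested genes. CDKN1A, the cell cycle inhibitor p21, went from 48.6 ± 5.81 to 16.7 ± 1.16 CPM (SD, n = 3 each), 2.92-fold lower. GADD45A, a growth arrest gene, was 3.41-fold lower and KLF10, a zinc finger factor, 3.26-fold lower. ANGPTL4, whose product inhibits lipoprotein lipase, was 2.46-fold lower, PPARGC1A, which encodes a coactivator for mitochondrial genes, 3.03-fold lower, and PDK4, a kinase gene of pyruvate metabolism, 3.26-fold lower. After rescaling KLF10 and GADD45A were still called lower, at -0.20 and -0.27, as were 24.1% of all tested genes. PPARGC1A, PDK4 and CDKN1A were not called, and ANGPTL4 turned to 0.19, not called. RGS16, a regulator of G protein signalling, was too low for the test at 1.02 ± 0.286 and 0.169 ± 0.107 CPM.

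The fourth list held 22 genes of the cAMP, serum and glucocorticoid inputs that reset clocks, through which PER1 and PER2 are known to be induced within a short time. FOS, FOSB, JUNB and EGR1 were listed, and all 4 fell (limma, adjusted p under 0.05), with a median change of -1.998. FOS, part of the AP-1 factor, went from 40.1 ± 3.83 to 6.98 ± 0.974 CPM (SD, n = 3 each), 5.75-fold lower, and FOSB was 6.43-fold lower, the 2 list genes whose fold exceeded that of NR1D1 among those tested. JUNB, another AP-1 subunit, went from 124 ± 11.6 to 42.3 ± 5.13 CPM and EGR1, a zinc finger factor, from 358 ± 14.3 to 115 ± 11.2 CPM, near the folds of NOCT and MIR6883. After rescaling, which left 24.1% of all tested genes called lower, FOS and FOSB were called lower, at -0.98 and -1.14. JUNB (-0.06) and EGR1 (-0.14) were not called. These lists were chosen with results of these tables known, and 97.5% of the tested genes were called lower, so the counts say nothing particular to the clock.

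The genes whose pattern over the 6 libraries was closest to that of the clock entries were DUSP10, EGR1 and PIK3R3. The measure was the Euclidean distance between log2(CPM + 1) profiles set to 0 at the control mean, over 159 candidate genes averaging 5 CPM or more, against the mean profile of the 6 clock entries at that level. DUSP10, a MAP kinase phosphatase gene, stood at a distance of 0.139 and went from 30.5 ± 1.88 to 9.29 ± 0.729 CPM. EGR1 stood at 0.155, and PIK3R3, a regulatory subunit of PI3 kinase, stood at 0.172 with 35.1 ± 1.85 and 11.6 ± 0.241 CPM. The clock entries were themselves spread around their mean profile, from TEF at 0.104 to NR1D1 at 1.31, beside a median of 0.77 over the candidates. Since this profile is mostly the difference between the groups, the closeness says little beyond a like fold.

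The promoter windows covered 250 bases before and 50 from each RefSeq start and were found for 6 of the 7 entries, in 7 windows. Both strands were searched. The E-box CACGTG was present for CIART and TEF, beside 7.26% of all 35116 windows and 7.95% of the 679 windows of listed genes. The E-prime-box CACGTT was present for NR1D1 and PER2, beside 5.34% of all windows and 4.42% of those of listed genes. The D-box, TTATGTAA or TTACGTAA, was present for PER2 and in 1.01% of all windows. The cAMP response core TGACG was present for PER2 at -53 to -49 and in 24.6% of all windows, and the full element TGACGTCA, which holds this core, was in none of the 7 and in 1.85% of all. The ROR and REV-ERB element (0.168% of all windows), the core AGGTCA that ends it (13.8%) and the serum response element (1.29%) were in none of the 7. These matches describe letters within the windows and are no measure of binding.

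**Figure D5:**
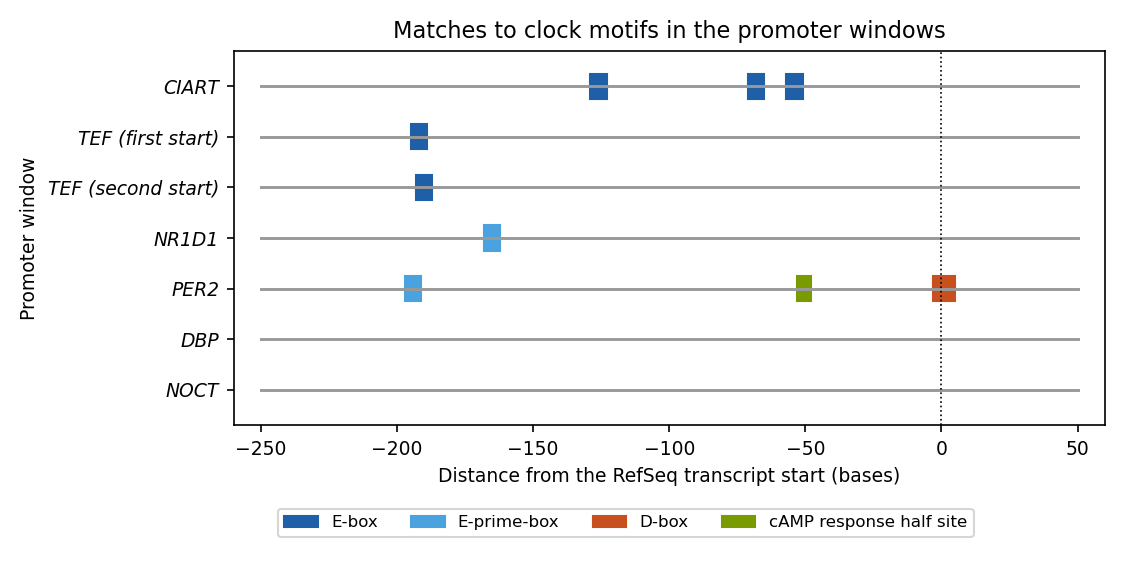
Matches to the motifs in the 7 promoter windows, by distance in bases from the RefSeq transcript start (dotted line), with a colour for each motif and each grey line spanning 1 window. CIART holds 3 E-boxes and each TEF start 1, NR1D1 and PER2 each hold 1 E-prime-box, and the DBP and NOCT windows hold no match.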

How the data were processed

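RNA from ES2 cells was sequenced in mRNA-focused libraries, 3 per group, grouped by their titles. Per the submitters' processing notes, FastQC 0.11.9 and fastp 0.22.0 were used and the build was GRCh38. For the aligner, counter, annotation and strand setting nothing is given in the sources used here. The authors deposited CPM for the same 1113 entries in every library, a unit read from the values. In R 4.3.3, limma 3.58.1 with a mean-variance trend was fitted to log2(CPM + 1) with group as the only term, over the 489 genes with a symbol and a mean of at least 1 CPM, with Benjamini-Hochberg adjustment. Low CPM values fell on even steps (whole multiples to 0.1 of a step, checked to 200 steps), but control libraries hold no value at 1 read, so whole reads could not be shown for every library and no count test was run. Read numbers, Poisson intervals and counting errors in the text are estimates that take 1 step as 1 read. Alternatives were a pseudocount of 0.1 CPM, other filters, rescaling, a replicate block and leaving out libraries. The limma fit was tested on simulated data in which most genes were unchanged and as many rose as fell. That setting differs from this list, in which nearly all genes were lower, so it does not cover it. The members and lists were chosen with earlier results of these data known. Named genes are the 7 members, the listed genes of the 4 lists, listed neighbours, and the 3 genes with the closest profiles. List symbols were matched to RefSeq synonyms. Promoters, 300 bases each, and the microRNA are RefSeq GRCh38.p14, and gene positions and exon lengths are GENCODE release 29.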

Additional observations from a re-analysis of the deposited data

How the results depend on the processing

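Under the alternatives tried, 88 of 90 values of the 7 clock entries were negative. All are refits of the same 6 libraries whose contrast served to pick the entries. In the main limma fit 97.5% of all tested genes were called lower, so the count says nothing particular to these entries. PER2 (0.21) and CIART (0.21) turned positive after rescaling to equal listed totals, as did ANGPTL4 (0.19), and the median of the listed core clock genes turned to 0.21. Rescaling also moved the median of the 7 entries to -0.070, of the output list to -0.13 and of the input list to -0.56. In this section the output list means its 9 tested genes, DBP, TEF and NOCT included, with a median of -1.49 as deposited. After rescaling 2 genes were called lower on the output list and 2 on the input list, none of them among the 7 entries. No call is counted for the core clock list, whose listed genes are all among the 7 entries. Over all tested genes rescaling gave 118 lower and 43 higher calls, as it centres the list by construction. With no filter on low values 750 genes were called lower and 19 higher of 771, and at a mean of 5 CPM or more 165 were called lower and 0 higher of 165 in limma, DBP not among them. With entries without a symbol included 20 were called higher. With a pseudocount of 0.1 CPM the changes of DBP and TEF moved to -1.75 and -1.78. With 1 library left out the calls were 477 to 478 lower and 10 to 11 higher, and the median of the 7 entries was -1.56 to -1.44, of the core clock genes -1.31 to -1.16, of the output list -1.54 to -1.41 and of the input list -2.08 to -1.94. Same-numbered replicates did not deviate together (correlations of -0.241, -0.102 and -0.021 over 489 genes). With 3 libraries per group this cannot show whether they share a culture or a batch. With a replicate block 478 genes were called lower and 10 higher, and the median of the 7 entries was -1.50. Per kb of the principal transcript, an alternative chosen after seeing the data, all 6 protein-coding clock genes kept their rank by control mean. For TEF and PER2 this rank is of the means only, since their control libraries overlapped per kb of exon. The control levels of DBP and CIART moved to 0.881 and 13.8 CPM per kb. Without division by length 4 of 6 genes kept their rank. The count tests planned in case whole reads could be recovered were not run. At these depths DBP stands at an estimated 6 to 14 reads in the knockdown libraries, which limits the precision of its fold.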
